A study of Mus musculus with 16 samples.

Results

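A small set of granule cell (GC) nuclei that carried RNA of *Fst*, *Ryr1*, *Capn3*, *Moxd1*, *Slc26a10* and *Akain1* was found in the dentate gyrus (DG) of every mouse. These nuclei, called members here, were selected on measured values, namely 2 or more unique molecular identifiers (UMIs, counts of single RNA molecules) over the 6 marker genes, from at least 2 of them, and 0 UMIs of *Sorcs3*. The choice was made among GC nuclei, which had 3 or more UMIs over *Prox1*, *Rfx3*, *Glis3*, *Chst9*, *C1ql2* and *Plk5* and none of *Gad2*, *Mog*, *Pdgfra*, *Gja1* or *Inpp5d*. Members numbered 585 of 10390 GC nuclei, or 5.63%, among 17015 nuclei in all. They were compared with GC nuclei that had 0 UMIs of the 6 markers, of which there were 7869. A member was paired with 1 such nucleus of the same mouse and nearly the same number of UMIs, which gave 584 pairs, with 1 member of a V321L mouse left unpaired. The nuclei paired with members are called matched nuclei.

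The series holds 8 mice, 4 wild-type (WT) and 4 homozygous for the V321L substitution in *Nrg1*, a change of 1 amino acid in the membrane-spanning part of neuregulin 1, with 2 females and 2 males of each genotype. Each mouse gave 1 Multiome library from microdissected and frozen DG, in which the RNA and the accessible chromatin (ATAC) of the same nucleus were sequenced. The age of these mice is not given in the sources used here, which state only a range for all experiments of the study. RNA libraries held between 4326426 and 14624265 UMIs in WT and between 15505354 and 23582057 in V321L mice, and the median GC nucleus held 2155, 1715, 1238 and 2092 UMIs in the WT mice F1, F2, M1 and M2 against 3347, 4684, 4553 and 3373 in the mutants. For mitochondrial RNA, the median share in GC nuclei ranged from 0.0611% to 0.130% in WT and from 0.301% to 1.06% in V321L mice. Genotype and depth of the libraries therefore cannot be told apart in any count that depends on detection. Across libraries, 171 barcode sequences were seen in 2 or more of them, which concerned 2.02% of nuclei.

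GCs are the principal neurons of the DG, receive input from the entorhinal cortex and send mossy fibers to CA3. *Prox1* is the transcription factor that defines them, and they mature through stages that can be followed by genes such as *Calb1*. Subtypes of GCs, among them semilunar granule cells (SGCs), differ in the position of the cell body, in the shape of the dendrites and in the RNAs they carry.

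The 6 markers belong to unrelated families. *Fst* encodes follistatin, a secreted protein that binds and inhibits activins. *Ryr1* encodes a ryanodine receptor, a calcium release channel of the endoplasmic reticulum best known from skeletal muscle. *Capn3* encodes a calcium-dependent protease, *Moxd1* a protein of the copper-dependent monooxygenase family, *Slc26a10* a member of a family of anion transporters, and *Akain1* a protein that binds protein kinase A. The 250 bases before the start of 2 of these genes are shown because these genes lay at the extremes of the number of libraries with a called peak. A peak was called within 2 kb of the *Moxd1* start in 8 of 8 libraries and within 2 kb of the *Ryr1* start in 0. Both come from RefSeq in build GRCm38.p6, at chr10:24223267-24223516 on the plus strand for *Moxd1* and at chr7:29125152-29125401 on the minus strand for *Ryr1*, written 5′ to 3′ with the dinucleotide CG in capitals.
Moxd1: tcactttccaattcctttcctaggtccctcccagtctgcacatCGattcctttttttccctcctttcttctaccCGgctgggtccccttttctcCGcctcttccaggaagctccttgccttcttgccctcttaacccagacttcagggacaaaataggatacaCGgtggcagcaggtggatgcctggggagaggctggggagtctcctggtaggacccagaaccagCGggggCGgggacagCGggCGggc
Ryr1: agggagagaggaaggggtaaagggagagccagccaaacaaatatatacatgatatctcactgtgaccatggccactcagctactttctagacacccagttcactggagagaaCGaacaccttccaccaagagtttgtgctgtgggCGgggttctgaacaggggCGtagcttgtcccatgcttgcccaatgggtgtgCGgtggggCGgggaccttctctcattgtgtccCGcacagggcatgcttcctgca
The *Moxd1* bases held 8 CG and the *Ryr1* bases 6, where the median of 32851 mouse promoters of the same length was 6 and 92.1% held at least 1. The upstream bases of *Akain1* held 19 CG and those of *Slc26a10* held 3. *Fst* was not in the promoter table. Before CG, 3 other motifs were searched on both strands, CAGATG (read as CATCTG on the other strand, found in 14.4% of promoters), TTCCTAGAA (TTCTAGGAA, 0.347%) and TGACGTCA (its own complement, 1.55%). None of these letters occurred upstream of the 5 markers in the table, and CG, which lies inside TGACGTCA, was added after that. Among the genes with the largest rises described below, *Il1r1* and *Kcnh5* had 1 CAGATG each in the same window.

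In the members, *Akain1* was the marker seen most often, with a UMI in 349 of the 585 nuclei. *Ryr1* was seen in 249, *Slc26a10* in 235, *Capn3* in 212, *Moxd1* in 190 and *Fst* in 139. A total of 309 members had exactly 2 marker UMIs, 153 had 3 and 123 had 4 or more, and 152 carried 3 or more of the 6 genes. Pairs of markers met in the same GC nucleus more often than their separate frequencies at each nucleus depth would give, from 1.36 times for *Ryr1* with *Akain1* to 3.15 times for *Fst* with *Moxd1*. Over all pairs this ratio was 1.49 in WT and 1.63 in V321L mice. As the rule used these UMIs, the ratios are a description.

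Over all GC nuclei of a mouse, *Fst* stood at 6.43, 5.79, 2.89 and 4.39 CPM, the counts of a gene scaled to the sum of all genes, in the WT mice F1, F2, M1 and M2 and at 16.5, 11.8, 9.68 and 10.2 in the V321L mice. *Ryr1* stood at 12.3, 8.10, 24.9 and 12.7 CPM in WT and at 30.7, 30.4, 25.2 and 32.4 in V321L mice. *Capn3* stood at 13.5, 7.52, 10.4 and 9.82 CPM in WT and at 23.8, 23.3, 17.2 and 21.6 in V321L mice. For these 3 genes each V321L mouse lay above each WT mouse, although WT M1 came close to V321L M1 for *Ryr1*. *Moxd1*, *Slc26a10* and *Akain1* overlapped between the genotypes. Beside this, edgeR called 27.5% of all genes tested higher in V321L than in WT members, and 26.5% in matched nuclei. The share of all genes without overlap over GC nuclei was not computed, so the 3 genes are not set apart from other genes. The 6 genes together gave 95.9, 93.2, 126.8 and 96.4 CPM in WT and 155.7, 150, 127.7 and 152.5 in V321L mice, with WT M1 and V321L M1 nearly equal. In such sums more nuclei with the RNA and more RNA per nucleus cannot be told apart. In RNA free of nuclei, taken from barcodes with at most 100 UMIs, the 6 genes stood at 82.2, 49.0, 90.9 and 91.6 CPM in the WT and at 50.2, 52.9, 46.1 and 48.1 in the V321L libraries. For single markers the WT free RNA was often as high as the GC nuclei. *Fst* stood at 13.5, 6.53, 5.93 and 12.1 CPM in the free RNA of the WT libraries, above the GC nuclei in 4 of 4, and *Capn3* at 13.5, 8.16, 11.9 and 17.3. *Ryr1* was lower in free RNA than in GC nuclei in 8 of 8 libraries, and in V321L libraries *Fst* and *Capn3* were too. The part of free RNA in the marker levels was not tested.

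Members made up 2.97%, 1.76%, 1.46% and 3.27% of GC nuclei in the WT mice F1, F2, M1 and M2 and 10.6%, 12.9%, 9.78% and 9.15% in the V321L mice. These shares came from 38, 42, 17 and 49 members in WT and from 117, 157, 87 and 78 in V321L mice. WT mice averaged 2.37% ± 0.887 and V321L mice 10.6% ± 1.64 (SD, n = 4 each), a difference of 8.23 points or 4.48-fold with no overlap (two-sided exact permutation test, p = 0.0286, the smallest that 4 against 4 mice allow). A nucleus with more UMIs meets a rule of 2 UMIs more easily, so the share was computed again after nuclei were thinned at random, with shallower nuclei left out. This left 683, 981, 203 and 795 GC nuclei at 2000 UMIs and 1107, 1892, 779 and 1265 at 1000 UMIs in WT F1, F2, M1 and M2. In V321L mice 954, 1184, 865 and 773 were left at 2000 UMIs and 1084, 1210, 885 and 841 at 1000, so the thinned shares describe the deeper part of the nuclei, and in WT M1 a small part of them. At 2000 UMIs per nucleus WT mice averaged 1.69% ± 0.491 and V321L mice 3.51% ± 0.830 as the mean of 20 thinnings, a difference of 1.82 points (exact permutation p = 0.0286). At 1000 UMIs it was 0.564% ± 0.208 and 1.11% ± 0.272, a difference of 0.543 points with overlap between the genotypes, WT M1 at 0.866% and V321L M1 at 0.774% (exact permutation p = 0.0571). A single thinning to 1000 UMIs left 4 to 6 members in a WT mouse and 7 to 15 in a V321L mouse, a difference of 0.722 points (exact permutation p = 0.0286), and a second random draw gave 0.151 points (p = 0.629 in the same exact test). The ratio of V321L to WT shares was 4.48 in the full counts, 2.07 at 2000 UMIs and 1.96 at 1000 UMIs as means of 20 thinnings, and 6.96 in a single thinning to 500 UMIs, which left few members. In the mean of 20 thinnings to 1000 UMIs the difference was not separable from the spread between mice.

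**Figure D1:**
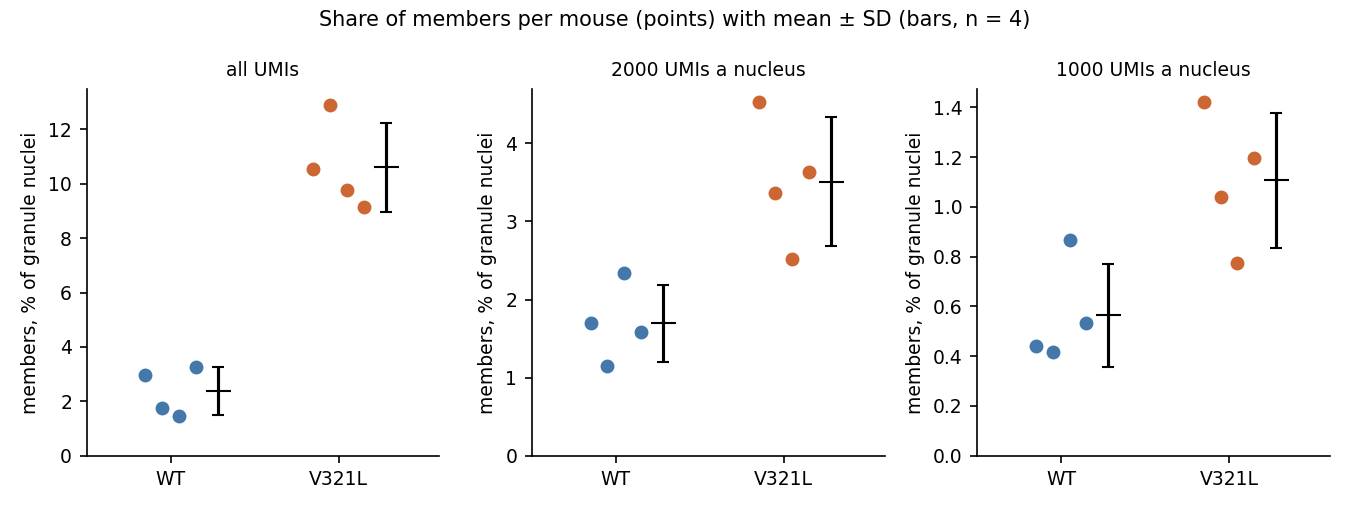
Members as a percentage of GC nuclei, 1 point per mouse, with the mean ± SD (n = 4) beside the points, in the full counts (left) and as the mean of 20 random thinnings to 2000 (middle) and 1000 UMIs per nucleus (right); each panel has its own axis from 0. The V321L mice lie above all WT mice at left, between 9.15% and 12.9%, and the genotypes overlap at right.

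None of 801 oligodendrocyte nuclei, a class that should lack the 6 markers, met the marker rule, which allows a share of up to 0.375% by the limit of 3 counts and of up to 0.460% by the exact 95% binomial interval (both cover counting error only). Their median depth was between 771 and 906.5 UMIs in WT and between 951 and 1300 in V321L mice, below that of the GC nuclei. The GC shares at 500 UMIs (WT 0.0438% ± 0.0629, V321L 0.305% ± 0.207, SD, n = 4) lay under that limit. At 1000 UMIs the mean over 20 thinnings, 0.564% in WT, lay above it. The 192 oligodendrocytes of the WT mice alone allow a share of up to 1.56% and those of the V321L mice 0.493%, so that the WT share at 1000 UMIs stood below the limit of its own genotype and the V321L share, 1.11%, above that of its own.

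Of the 6 genes of the GC rule, 4 were mostly higher in members than in matched nuclei and 2 lower. *Rfx3* was higher in members than in matched nuclei in 8 of 8 mice, for example at 5578 against 3322 CPM in WT F1 and at 2182 against 1354 in V321L F1. *Prox1* was higher in members in 7 of 8 mice and lower in V321L M2, at 220 against 249.5 CPM, and the share of members with a *Prox1* UMI ranged from 41.2% to 78.9% per mouse, and that of matched nuclei from 40.5% to 67.95%, as the GC rule does not require *Prox1*. *Chst9* was higher in 8 of 8 mice and *Glis3* in 7, with V321L M2 the exception. *C1ql2* was lower in members in each V321L mouse, at 169, 158, 173 and 185 CPM against 312, 258, 295 and 276, and stood between 0 and 13.9 CPM in WT members and between 0 and 19.1 in WT matched nuclei. *Plk5* was at 0 or 4.64 CPM in WT members and, in V321L mice, at 56.2, 37.7, 44.8 and 55.0 CPM against 75.7, 71.1, 75.3 and 110.3. As the rule used these genes, the values are descriptions.

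Summed markers of other cell classes mostly stood near or below their level in matched nuclei. The 10 markers of pyramidal neurons and mossy cells summed to 505, 644, 833 and 664 CPM in the members of the 4 WT mice and to 401.5, 412, 370.2 and 419.7 in those of the V321L mice. Matched nuclei gave 542, 828.5, 1089 and 716 CPM in WT and 477, 424, 519 and 438 in V321L mice, which was above the members in 8 of 8 mice. *Cpne4* was the most abundant gene of that list and *Drd2*, which marks mossy cells, was at 0 in members. The 6 GABAergic markers averaged 83.0 CPM in members and 147 in matched nuclei, with the widest gap in WT F1 (30.1 against 415 CPM), and members were higher in 3 of 8 mice. *Gad1*, the most abundant of them, had 147 UMIs in members and 137 in matched nuclei. The 6 oligodendrocyte markers averaged 459 against 439 CPM, led by *St18*, which rose by 0.35 on the log2 scale (adjusted p = 0.00436) while the list was higher in 5 of 8 mice. *St18* lost its call without V321L F2 (adjusted p = 0.0637) or V321L M1 (0.0651), in DESeq2 (0.0727) and with a *Prox1* UMI in both groups (0.240). The 6 astrocyte markers averaged 220 against 328 CPM, led by *Slc1a2*, which fell by 0.76 (adjusted p = 6.27e-07). Microglial markers averaged 46.2 against 40.3 CPM, neuroblast markers 49.3 against 65.5, oligodendrocyte precursor markers 8.46 against 14.1, Cajal-Retzius markers 8.81 against 8.64 and vascular markers 4.92 against 3.17. *Cspg4*, *Lhx5*, *Pdgfrb* and *Draxin* were at 0 in members. The part of these RNAs in the results was not tested, and the share of members with a high doublet score ranged from 0% to 9.52% per mouse, the highest in WT F2. For matched nuclei this share ranged from 1.28% in V321L M2 to 12.2% in WT M2. It was higher in matched nuclei than in members in every mouse except V321L M2, and its part in the results was not tested.

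Members differed from matched nuclei in many genes that the rule had not used. Of 4545 genes tested, 333 were higher in members (7.33% of genes tested) and 324 lower (7.13%), 14.5% in both directions, at an adjusted p of at most 0.05 in the quasi-likelihood test of edgeR with the mouse as a block, and the median of all genes was -0.01 on the log2 scale. Genes that moved the same way in every mouse and averaged 20 CPM or more were ranked by size. The largest rises were those of *Hectd2* and *Mast4*, and the largest falls those of *Galntl6*, *Chrm3* and *Mgat4c*. Matching kept the depth alike, with median UMIs of 4161 in members and 4157 in matched nuclei of WT F1, and of 5980 in both in V321L F2. The number of calls rested on V321L F2 more than on any other mouse: without it 214 genes were higher and 214 lower. In the WT mice alone, with 146 pairs, 70 of 2452 genes tested were higher and 82 lower. The rule bars *Sorcs3* in members but not in matched nuclei. Against matched nuclei with 0 *Sorcs3* UMIs, 262 of 4571 genes tested were higher in members and 252 lower.

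*Hectd2*, which encodes a ubiquitin ligase of the HECT type, had the largest rise among the genes that moved the same way in every mouse. It stood at 740, 484, 547 and 631 CPM in the members of WT F1, F2, M1 and M2 and at 438, 553, 500.4 and 576 in those of the V321L mice, against 385, 236, 207 and 288 CPM and 151, 182, 138 and 249.5 in the matched nuclei. Every member value lay above every matched value. The rise was 1.39 ± 0.0909 on the log2 scale (SE, adjusted p = 3.06e-27). *Mast4*, which encodes a microtubule-associated serine/threonine kinase, stood at 1131, 1128, 1250.0 and 1267 CPM in the members of WT and at 1003, 1152, 812 and 883 in those of V321L mice, against 505.5, 452.5, 648 and 637 CPM and 365, 442, 311 and 569 in the matched nuclei. Here too all members lay above all matched nuclei, with a rise of 1.20 ± 0.0747 (SE, adjusted p = 1.17e-28).

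The other 10 of the 12 largest rises were between 1.04 and 1.16 on the log2 scale and were higher in members in 8 of 8 mice, except that *Bcl6* was nearly equal in WT M1, at 26.03 against 25.93 CPM. *Bcl6*, a transcriptional repressor, rose by 1.16 ± 0.154, from a mean of 48.7 CPM in matched nuclei to 104.0 in members. *Arhgef28*, a guanine nucleotide exchange factor, rose by 1.13 ± 0.123, from 101.2 to 235 CPM. Signalling genes were among them, namely *Il1r1*, a receptor for interleukin-1 (1.11), *Pdgfc*, a growth factor (1.05), *Grm2*, a metabotropic glutamate receptor (1.05), and *Sorcs2*, a receptor of the sortilin family (1.07). *Syt10*, a synaptotagmin (1.09), *Kcnh5*, a voltage-gated potassium channel (1.09), *Pla2g4e*, a phospholipase (1.08), and *Hdac1*, a histone deacetylase (1.04), completed the set. All 12 rises were called again when the matched nuclei were also required to have 0 *Sorcs3* UMIs, with values between 0.67 and 1.34. In the WT mice alone 6 of the 12 could be tested and 5 were called.

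**Figure D2:**
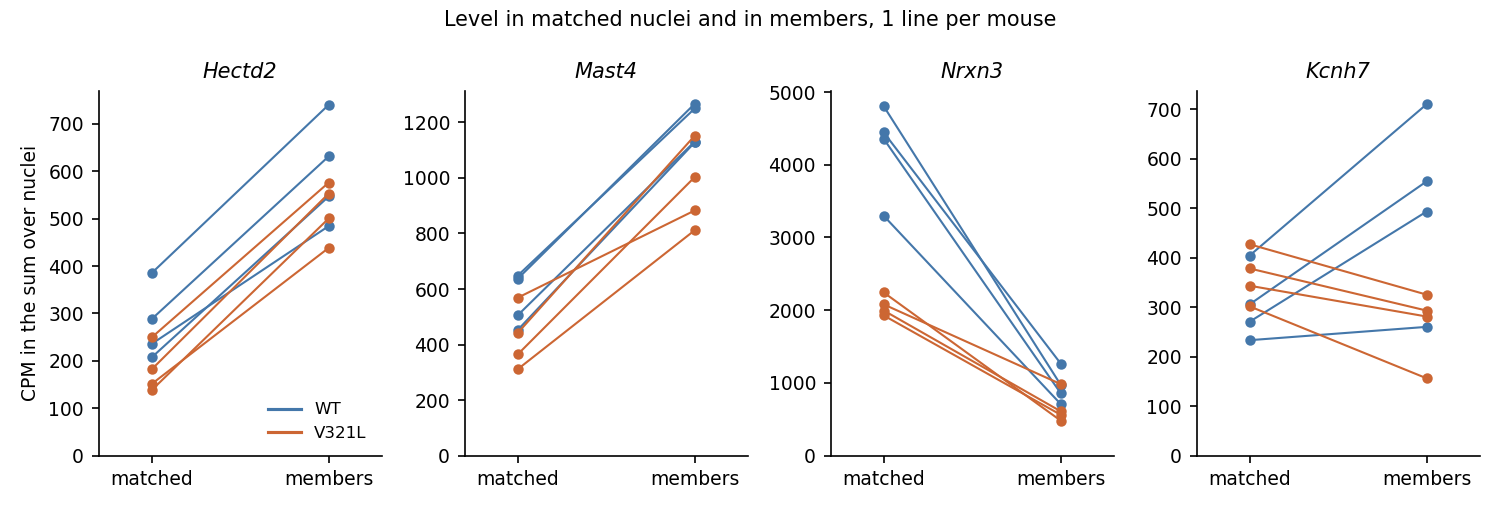
CPM of *Hectd2*, *Mast4*, *Nrxn3* and *Kcnh7* in the summed matched nuclei and the summed members, 1 line per mouse, blue for WT and orange for V321L, with linear axes from 0. *Hectd2* and *Mast4* go up and *Nrxn3* goes down in 8 of 8 mice, and *Kcnh7* goes up in each WT mouse and down in each V321L mouse.

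Among the falls, *Nrxn3*, which encodes a neurexin of the presynaptic membrane, was the most abundant gene. It stood at 710.0, 975, 859 and 1267 CPM in the members of the WT mice and at 562, 482, 610.2 and 984 in those of the V321L mice, against 3298, 4805, 4356 and 4444 CPM and 1928, 2244, 1996 and 2080.0 in the matched nuclei. The highest member value lay below the lowest matched value, and the fall was -1.87 ± 0.0683 on the log2 scale (SE, adjusted p = 1.69e-49). *Kcnq5*, a voltage-gated potassium channel of the M-current family, stood at 24.1, 147, 0 and 237 CPM in the members of WT and at 29.1, 43.1, 54.9 and 52.1 in those of V321L mice, against 132, 797, 752 and 1032 CPM and 237, 144, 187 and 168 in matched nuclei. WT M1, with 17 members, had no *Kcnq5* UMI in them, and the groups overlapped although each mouse showed the fall (-2.18 ± 0.134, adjusted p = 3.12e-29).

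The largest falls were those of *Galntl6*, a glycosyltransferase gene, at -3.95 ± 0.215, *Chrm3*, a muscarinic acetylcholine receptor, at -3.54 ± 0.202, and *Mgat4c*, another glycosyltransferase gene, at -3.48 ± 0.170 (log2, SE). Next came *Sgcz*, a sarcoglycan, at -2.91, *Kcnc2*, a voltage-gated potassium channel, at -2.67, *Khdrbs3*, an RNA-binding splicing regulator, at -2.42, and *Snhg11*, a long non-coding RNA, at -2.23. *Zfp385b*, which encodes a zinc finger protein, followed at -1.74, *Grm8*, a metabotropic glutamate receptor, at -1.74, and *Trps1*, a zinc finger repressor, at -1.67. Of the matched nuclei, 20.4% carried a *Sorcs3* UMI, which the rule bars in members. Against matched nuclei with 0 *Sorcs3* UMIs, 10 of the 12 falls could be tested and 10 were called, between -3.54 and -1.20. With 5 or more UMIs of the GC genes required in both groups, the 11 falls that could be tested were called but smaller, *Galntl6* at -3.06, *Chrm3* at -2.30, *Mgat4c* at -2.54, *Khdrbs3* at -1.53 and *Kcnq5* at -1.40, while the 12 rises lay between 0.87 and 1.35. When members and matched nuclei were both required to have a *Prox1* UMI, only 4 of the 12 could be tested, *Sgcz*, *Snhg11*, *Nrxn3* and *Zfp385b*, and all 4 were called. That comparison held 394 pairs and changed both groups. The mean of matched nuclei was then lower than over all pairs, at 57.5 in place of 164.5 CPM for *Galntl6*, 84.9 in place of 192.5 for *Chrm3* and 207 in place of 369 for *Mgat4c*. Several falls thus moved with how strictly GC nuclei were defined, and whether all matched nuclei were GCs was not tested. *Nrxn3* averaged 658 CPM in members and 2320 in matched nuclei, where all pairs gave 806 and 3144, and *Kcnq5* averaged 44.9 against 278, where all pairs gave 73.3 and 431. *Kcnc2* averaged 16.9 against 45.4 CPM, where all pairs gave 19.0 and 154. *Kcnq5*, *Mgat4c* and *Kcnc2* were then lower in members in 5 of 8 mice and higher in 3. *Sgcz*, *Snhg11*, *Nrxn3*, *Zfp385b* and *Trps1* were lower in 8 of 8 mice, *Galntl6*, *Chrm3* and *Khdrbs3* in 7 and *Grm8* in 6. Of the 12 rises, *Hectd2*, *Mast4*, *Arhgef28*, *Syt10*, *Kcnh5*, *Pla2g4e* and *Sorcs2* were higher in 8 of 8 mice, and *Bcl6*, *Il1r1*, *Pdgfc*, *Grm2* and *Hdac1* in 7.

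**Figure D3:**
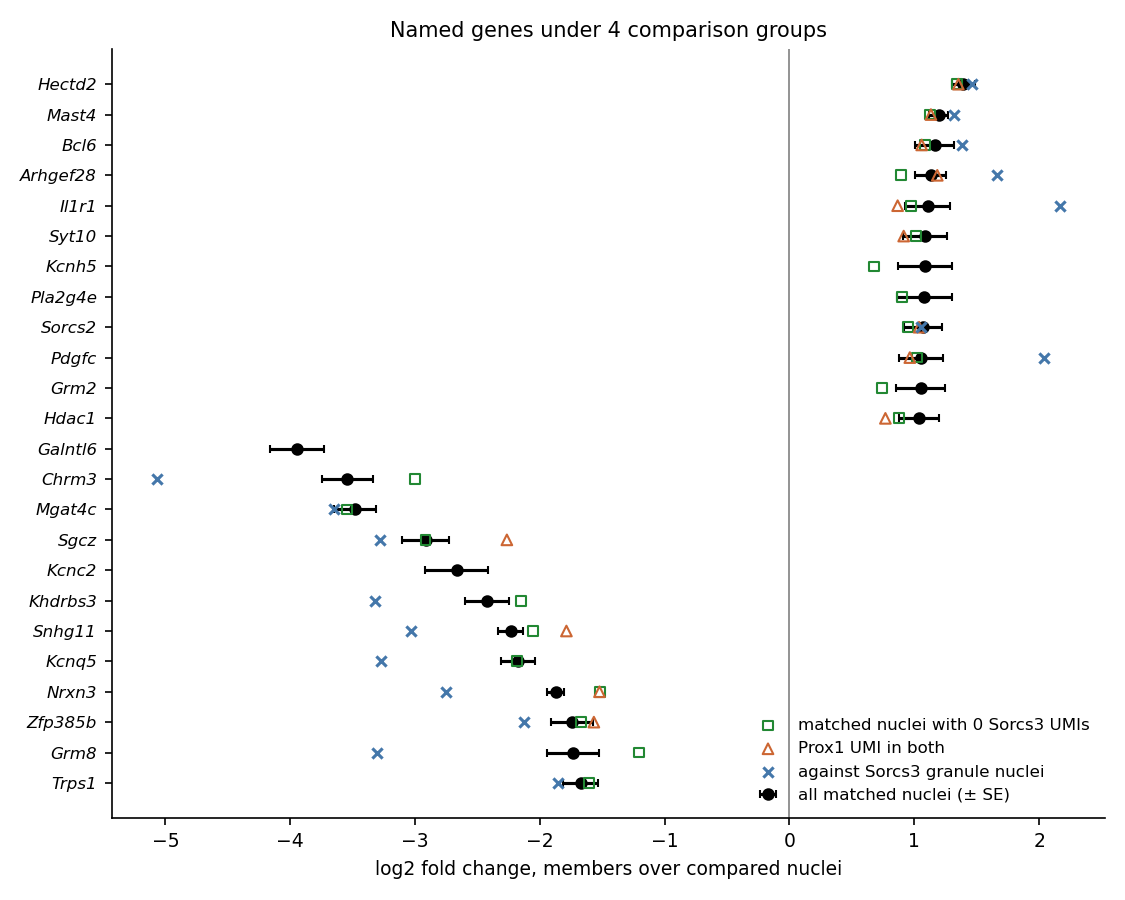
Log2 fold change of the 12 largest rises and 12 largest falls, members over the nuclei they were compared with, for all matched nuclei (black, ± SE), matched nuclei with 0 *Sorcs3* UMIs (squares), nuclei with a *Prox1* UMI in both groups (triangles) and GC nuclei with *Sorcs3* (crosses); a missing symbol means that the gene could not be tested. All symbols of a gene lie on the same side of 0.

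Levels on each side of the member threshold are given as a description without a test, and the nuclei compared were not matched on depth. In WT F1, for example, the median was 1991.5 UMIs in nuclei with 0 marker UMIs, 2772 with 1 and 6213 in members with 4 or more, and the part of depth was not tested. Mean *Hectd2* over the mice was 212 ± 78.2 CPM in GC nuclei with 0 marker UMIs, 320 ± 90.6 with 1, and 387 ± 153 with 2 or more UMIs of 1 gene, which are just outside the rule. It was 575 ± 182 in members with 2, just inside, 508 ± 55.6 with 3 and 664 ± 87.6 with 4 or more (SD over mice). *Nrxn3* was 2330 ± 527, 1483 ± 444 and 1007 ± 209 CPM outside the rule and 969 ± 318, 806 ± 342 and 413 ± 134 inside it, so that the nuclei next to the threshold were alike for *Nrxn3*. *Mast4* went from 519 to 839 CPM outside the rule and lay between 1029 and 1172 inside it. There were 1721 nuclei with 1 marker UMI and 187 with 2 or more UMIs of 1 gene, and 28 nuclei met the marker rule but were left out for *Sorcs3*. Over the 2 mice with at least 5 of these, *Nrxn3* averaged 2917 ± 710 CPM, *Mast4* 630 ± 315 and *Hectd2* 445 ± 53.7.

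**Figure D4:**
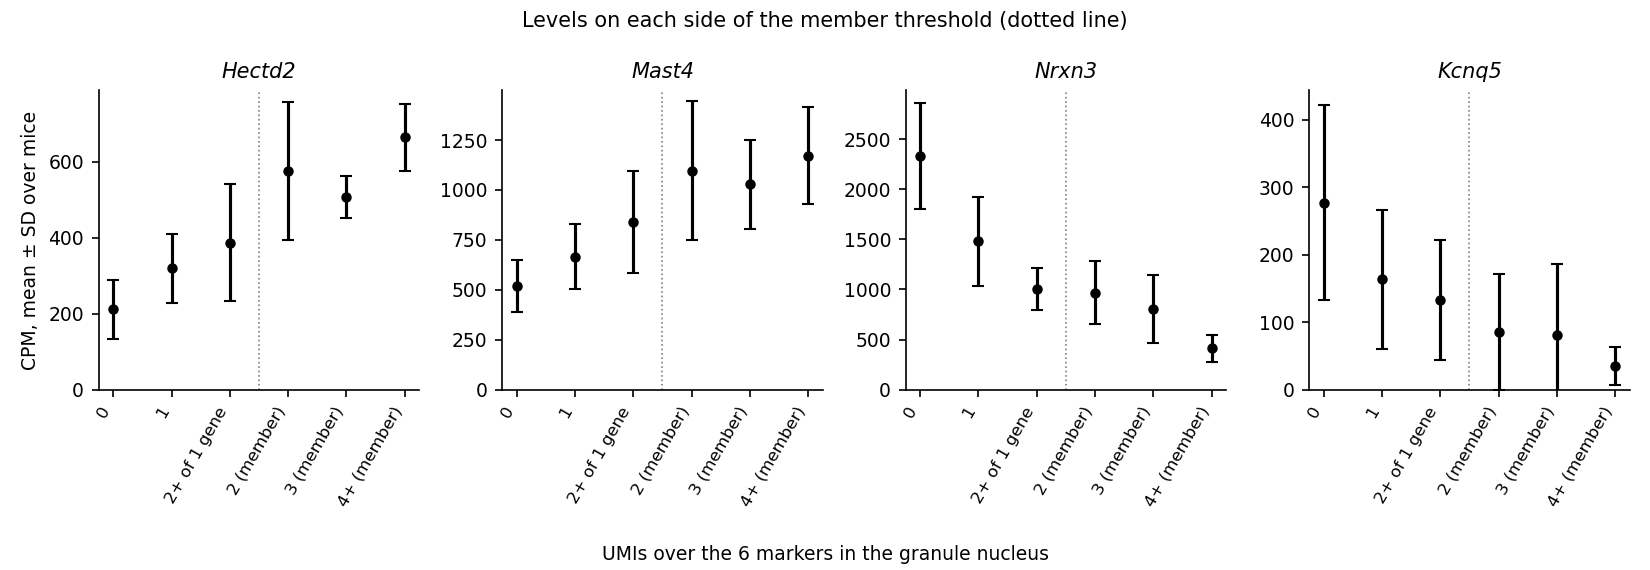
Mean CPM ± SD over mice of 4 genes in GC nuclei with 0, 1, or 2 or more UMIs of a single marker (left of the dotted line) and in members with 2, 3, or 4 or more marker UMIs (right of it); error bars are drawn only above 0. *Hectd2* and *Mast4* are higher in members and *Nrxn3* and *Kcnq5* lower, with *Nrxn3* at 1007 CPM just outside and 969 CPM just inside the threshold.

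The 4 genes of that plot were also read in the members that carried a given marker, each of which carried at least 1 other. Members that carried *Ryr1* averaged 522 CPM of *Hectd2*, those with *Capn3* 523, those with *Moxd1* 578, those with *Slc26a10* 527, those with *Akain1* 539 and those with *Fst* 788. Each of these values lay above the matched nuclei in all mice that had enough such nuclei, 7 mice for *Fst* and 8 for the others. *Nrxn3* and *Kcnq5* were lower than in matched nuclei in the same mice for each of the 6 markers. A nucleus with several markers counts under each of them.

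Members lay near each other in the expression of genes outside the rule. Among the 20 nearest neighbours of a nucleus of the same mouse, taken from members and matched nuclei in 30 principal components, the share of members was higher around members than around matched nuclei by 7.37, 4.40, 1.76 and 16.6 percentage points in the WT mice and by 36.6, 37.0, 31.2 and 10.3 in the V321L mice. The difference was positive in 8 of 8 mice and averaged 18.2 ± 14.7 points (SD, n = 8, two-sided exact sign-flip permutation test, p = 0.00781, the smallest that 8 mice allow). It was the smallest in WT M1, where the neighbours could come from only 17 members and 17 matched nuclei. After thinning to 1000 UMIs it was 9.38 points and above 0 in 7 of 8 mice (p = 0.0156 in the same exact test). With 40 neighbours it was 11.7 points and above 0 in 7 of 8 mice (p = 0.0391 in the same exact test). WT M1 held fewer than 40 other nuclei, so all of them were taken and its -3.03 was fixed by the group sizes. That mouse thus adds no information to the mean, the count or the p with 40 neighbours. With 15 components the difference was 23.7 points and above 0 in 7 mice (exact p = 0.0156), with WT M1 at -2.65. Of the matched nuclei 20.4% carried *Sorcs3*, which the rule bars in members, and genes that vary with *Sorcs3* stayed in the components. Neighbours among matched nuclei with 0 *Sorcs3* UMIs were not computed, so the part of this bar in the difference was not tested.

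The pathway of *Fst* was examined through 36 genes of activin, BMP and TGF-β signalling, of which 12 passed the filter on low counts. *Acvr2a*, a type II receptor for activins, rose by 0.86 ± 0.0984 (adjusted p = 1.52e-12). Its levels were 782, 510, 260 and 631 CPM in the members of WT and 221, 305.0, 291 and 284 in those of V321L mice, against 530, 293, 415 and 377 CPM and 140, 149.8, 114 and 128 in matched nuclei, so that WT M1 went the other way. Of the type I receptors, *Acvr1c* fell by 1.36 and *Acvr1* by 0.39, and *Smad3*, which carries the signal to the nucleus, fell by 0.87. *Fstl4* and *Fstl5*, which are related to follistatin by name and domain, fell by 0.72 and 0.70. In all 1 of the 12 rose and 5 fell, beside 7.33% and 7.13% of all genes tested, with a median of -0.34 against -0.01. *Acvr1* and *Fstl5* were not called in DESeq2 (adjusted p = 0.131 and 0.0564), nor without V321L F1 (0.131 and 0.0559) or V321L F2 (0.173 and 0.0665), and *Fstl5* was not called without WT F1, WT F2 or V321L M1 either (0.0538 to 0.140). *Inhba*, which encodes the activin subunit βA, was among the 6 that did not pass the test.

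Around *Ryr1*, 15 of 31 genes of calcium release and storage were tested, of which 3 rose and 3 fell, beside 7.33% and 7.13% of all genes, with a median of 0.07. *Itpr1*, a receptor for inositol trisphosphate that releases calcium from the endoplasmic reticulum, rose by 0.73 ± 0.0920 (adjusted p = 1.07e-10) and stood higher in members in 8 of 8 mice, for example at 505 against 391 CPM in WT F1 and 446 against 226 in V321L F2. *Orai2*, a channel of store-operated calcium entry, rose by 0.72. *Ryr3*, a ryanodine receptor like *Ryr1*, fell by 0.70, and the plasma membrane calcium pump gene *Atp2b2* fell by 0.43. The smaller changes of *Jph1*, a junctophilin (0.23), and *Atp2b1*, another pump (-0.24), were not called when matched nuclei had 0 *Sorcs3* UMIs or when both groups had a *Prox1* UMI. *Jph1* was also not called in DESeq2 (adjusted p = 0.0573) or, in edgeR, without the filter on low counts (0.102). It lost its call too without V321L F1, V321L F2, V321L M2, WT F2 or WT M2 in turn (0.0655 to 0.162). *Ryr2*, *Stim1* and *Cacna1c* were tested and did not pass.

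In the families of the other markers 1 of 24 genes tested was called, beside 14.5% of all genes in either direction. Both calpains tested, *Capn7* and *Capn15*, did not pass, nor did *Pam*, the copper-dependent monooxygenase tested, nor any of the 6 chloride and bicarbonate transporters tested. Of 15 genes of protein kinase A and its anchors, *Prkacb*, a catalytic subunit, fell by 0.51 (adjusted p = 0.00629, and 0.0716 without V321L F2). The medians of these lists were 0.18, -0.17, -0.10 and -0.10 on the log2 scale, beside -0.01 for all genes tested.

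Most genes tested among those that the study linked to SGCs fell in members. Of the 16 genes, 7 were tested, 0 rose and 6 fell, beside 7.33% and 7.13% of all genes, with a median of -1.5. The rule bars *Sorcs3*, which the study also used to mark SGCs, in members but not in matched nuclei. Against matched nuclei with 0 *Sorcs3* UMIs the 5 falls that could be tested were called and several were smaller, with *Nrg1* at -1.04, *Scg2* at -0.37, *Chgb* at -0.79, *Grm8* at -1.20 and *Sgcz* at -2.92. The study chose this list on these samples, so it is no independent evidence of its direction. *Nrg1* itself fell by 1.496 ± 0.102 (adjusted p = 5.53e-26), from 915, 854, 985 and 595 CPM in the matched nuclei of the WT mice to 325, 478, 156 and 181 in the members, and from 605, 716, 970.4 and 325 to 283, 224, 155 and 240.2 in the V321L mice. Every mouse showed the fall, the smallest in V321L M2. *Itgav*, an integrin subunit, fell by 1.53, and *Chgb* and *Scg2*, proteins of dense core vesicles, fell by 0.97 and 0.61. *Penk* was below the filter on low counts.

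Of the 7 maturation genes tested, 4 rose and 1 fell, beside 7.33% and 7.13% of all genes, with a median of 0.35. The list holds genes of early and of late stages, so its count and median give no direction of maturation. *Neurod2*, a transcription factor of differentiating neurons, rose by 0.79 (0.92 in V321L mice alone and 0.00139 in WT mice alone, where it was not called, adjusted p = 1 in edgeR, with the difference between the genotypes at 0.92 and adjusted p = 0.650), *Calb1*, which encodes the calcium-binding protein calbindin of mature GCs, by 0.63, *Camk4*, a calcium-dependent kinase, by 0.60, and *Bcl11b*, a zinc finger transcription factor, by 0.35. *Calb1* stood at 240.7, 172, 260.3 and 186 CPM in the members of WT and at 270 and 177 in those of V321L F1 and F2, against 240.7, 63.7, 25.9 and 93.0 and 167 and 125.0 in matched nuclei, with equal values in WT F1. *Ntng1*, a netrin-related adhesion protein, fell by 0.72. *Bcl11b* was not called when both groups had a *Prox1* UMI (adjusted p = 0.0762) or without V321L M1 (0.154), and *Camk4* was not called under the rule without *Akain1* (0.122). Of the genes that vary along the dorsal to ventral axis, 3 were tested and *Smad3* alone was called. Of 22 genes induced by activity, 4 were tested and *Bdnf*, a neurotrophin, fell by 0.86, and by 0.52 against matched nuclei with 0 *Sorcs3* UMIs (adjusted p = 0.0157), while *Homer1*, *Inhba* and *Rheb* did not pass. All 3 genes that mark another group of GC nuclei rose, *Ror1*, a receptor tyrosine kinase, by 0.88, *Npnt*, a matrix protein, by 0.86 and *Il1rapl2*, of the interleukin-1 receptor family, by 0.60. *Il1rapl2* was higher in members in 6 of 8 mice and lost its call in DESeq2 (adjusted p = 0.188) and without WT F2, WT M1, WT M2, V321L F1, V321L F2 or V321L M2 in turn (0.0855 to 0.163). That group held 987 nuclei, and 154 nuclei belonged to both, or 26.3% of members and 15.6% of the other group (4.48% to 11.1% of it in WT and 21.0% to 34.6% in V321L mice), while 10.3% of matched nuclei belonged to it.

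GC nuclei with 2 or more UMIs of *Sorcs3*, which encodes a sortilin-family receptor, and none of the 6 markers form another small set, and they share the GC rule and the depth matching with the members. Of 2720 genes tested in this comparison, 325 were higher in members (11.9%) and 294 lower (10.8%), 22.8% in both directions. The largest rises were those of *Il1r1* (2.16 ± 0.319), *Pdgfc* (2.04 ± 0.298) and *Ror1* (1.94 ± 0.205), followed by *Slc4a4*, a bicarbonate transporter (1.92 ± 0.107). The largest falls were those of *Chrm3* (-5.07), *Nell1*, a secreted protein (-3.87), *Elmo1*, a regulator of cell migration (-3.81), and *Mgat4c* (-3.65). Both comparisons share the members. Of the genes called higher against matched nuclei, 273 could be tested here and 206 were called higher, and of those called lower, 253 could be tested and 197 were called lower. WT M1 gave 13 pairs and V321L F2, the largest, 54.

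The member effect differed between the genotypes for 1 gene, 0.0220% of 4545 tested. *Kcnh7*, a voltage-gated potassium channel of the Erg type, stood at 493, 554, 260.3 and 710.3 CPM in the members of WT F1, F2, M1 and M2, against 271, 306, 233 and 404.5 in matched nuclei. In V321L mice it stood at 281, 293, 325 and 156 CPM in members, against 343, 378, 427 and 302 in matched nuclei. Members were above matched nuclei in each WT mouse and below them in each V321L mouse, with the smallest gap in WT M1. The effect was 0.81 on the log2 scale in WT and -0.44 in V321L mice, and the difference was -1.28 ± 0.185 (SE, interaction term of edgeR, adjusted p = 2.60e-07).

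Between the genotypes the members themselves differed in 47.1% of genes. V321L members had 1293 genes higher (27.5% of 4703 tested) and 922 lower (19.6%) than WT members, and matched nuclei gave 26.5% and 18.9% of 4728. A difference in that many genes was thus not limited to members. The depth and the mitochondrial share of the libraries, given above, differed between the genotypes too. With members thinned to 1000 UMIs, 205 of 1147 genes tested were higher and 174 lower, and the part of the mitochondrial share was not tested. With library sizes in place of TMM the same fit gave 1641 higher and 592 lower, which moved the median of all genes from 0.09 to 0.33. Among the 5 largest rises without overlap were the ribosomal protein genes *Rps3*, *Rpl32* and *Rpl7* and the respiratory chain gene *Uqcrq*. These 4 had 0 counts in the members of the 4 WT mice, and set against 3 counts over the group (5.24 CPM) they were at least 33.5-, 23.3-, 22.1- and 19.9-fold higher, with 175, 122, 116 and 104 CPM in V321L members. In matched nuclei *Rps3*, *Rpl32*, *Rpl7* and *Uqcrq* were higher in V321L mice too, at 3.63, 6.30, 5.12 and 4.27 on the log2 scale. Ribosomal protein genes have many processed copies. The part of read assignment in these counts was not tested.

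*Gm42418*, *Gm26917* and *AY036118*, which overlap ribosomal RNA sequence, were lower in V321L members, at -4.15, -3.07 and -2.46 on the log2 scale. They were lower in V321L matched nuclei too, at -4.40, -3.22 and -2.69. *Macrod2os1*, an antisense transcript whose reads may be shared with its partner, stood at -2.68 and *Ntm*, a cell adhesion gene, at -2.41. Of the genes with the largest member effects, *Bcl6* was higher in V321L than in WT members by 0.88 ± 0.289 (adjusted p = 0.0149) and *Kcnh5* was lower (-1.80 ± 0.276, adjusted p = 1.31e-05), both without overlap. *Hectd2* and *Mast4* were lower, at -0.39 and -0.45 (adjusted p = 0.0364 and 0.00785) with overlapping mice, and after thinning to 1000 UMIs at 0.01 and -0.06. In matched nuclei the same edgeR comparison gave 1.02 for *Bcl6* (adjusted p = 0.0813), -0.81 for *Hectd2* (0.00599) and -0.49 for *Mast4* (0.0377). These genotype differences were thus not particular to members, and *Kcnh5* could not be tested in matched nuclei.

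No accessible region told members and matched nuclei apart at this depth. Of 25604 regions with a peak in every library, 5197 passed the filter on low counts. Of these 0% were called in the edgeR test, where 88 were higher and 94 lower at an unadjusted p under 0.05, and DESeq2 also called 0, with 80 and 98 at the same level. The region with the smallest p among those higher was chr9:83146262-83147079 in build mm10, near *Hmgn3*, at 1.23 ± 0.366 on the log2 scale (adjusted p = 0.998). Of 12594 windows within 20 kb of gene starts that passed the filter, 0% were called, with 279 higher and 291 lower at an unadjusted p under 0.05.

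ATAC counts near the markers themselves, which the rule did not use, were small. Pairs were matched on RNA UMIs, and the median ATAC count per nucleus was not alike in members and matched nuclei. It was lower in members in WT F2 (1977.5 against 2329) and V321L M2 (2666.5 against 2770.5). In the other mice it was higher in members, for example 15724 against 13033 in V321L M1. The sums of counts below are not scaled for this. Near *Fst* the members had 8, 0, 9 and 2 counts in WT F1, F2, M1 and M2 and 21, 32, 48 and 12 in the V321L mice, against 4, 0, 2 and 4 and 10, 10, 10 and 6 in matched nuclei. Members were higher in 6 mice, lower in WT M2 and at 0 with the matched nuclei in WT F2, which gave 132 counts against 46. Near *Capn3* they had 178 counts against 98 and were higher in 7 of 8 mice, all but WT M1. *Fst* and *Capn3* did not pass the filter on low counts in these sums, and without the filter their differences were 1.28 ± 0.420 and 0.79 ± 0.341 on the log2 scale with an adjusted p of 1 for each in edgeR. *Capn3* passed the filter without WT M1 (0.94 ± 0.313, adjusted p = 0.999) and with nuclei matched on ATAC counts, where the difference was 0.48 ± 0.322 (adjusted p = 0.995). *Slc26a10* had the most counts, 763 against 791, with members higher in 3 mice and lower in 4 (-0.16 ± 0.127, adjusted p = 0.9999). *Moxd1* gave 56 counts against 44 and *Akain1* 75 against 51, and no library had a peak within 20 kb of the *Ryr1* start.

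**Figure D5:**
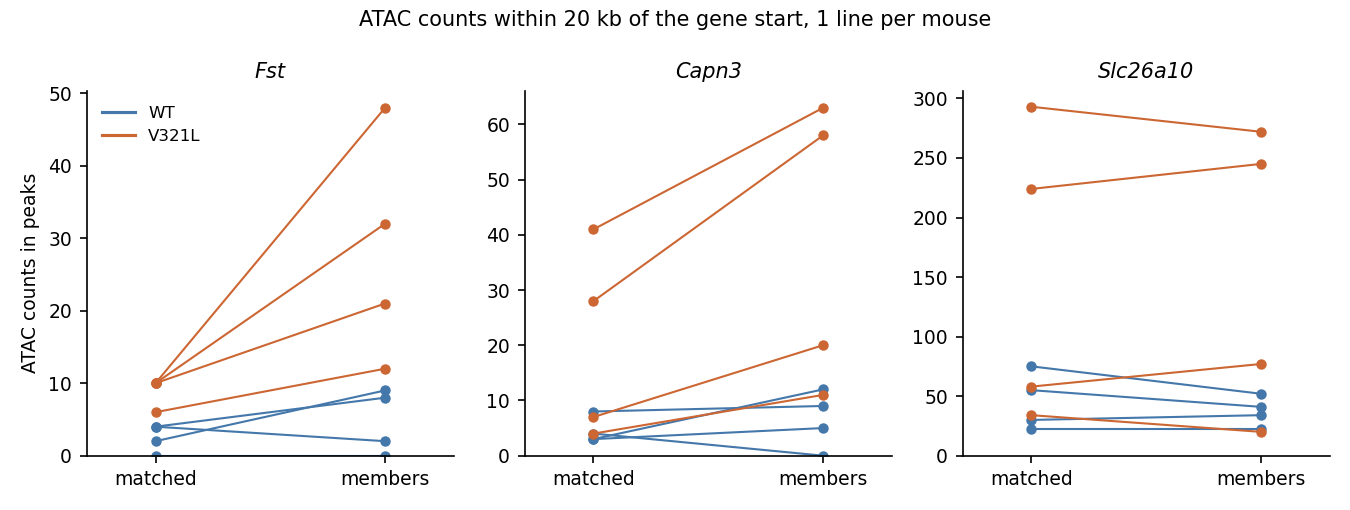
ATAC counts in peaks within 20 kb of the start of *Fst*, *Capn3* and *Slc26a10*, summed over matched nuclei and over members, 1 line per mouse, blue for WT and orange for V321L, with linear axes from 0. The *Fst* lines go up in 6 mice and the *Capn3* lines in 7, while those of *Slc26a10* go both ways. The sums are not scaled to the ATAC depth of the nuclei.

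Over genes, ATAC and RNA leaned the same way by small amounts. Genes higher in members had a median ATAC difference of 0.07 on the log2 scale, with 64.0% above 0 among the 247 that had ATAC counts. Genes lower in members had a median of -0.08, with 34.8% of 210 above 0, and all 3484 genes with both readouts had a median of -0.00273 with 49.4% above 0.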

How the data were processed

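RNA and ATAC were measured in the nuclei of 8 DG libraries, 1 per mouse. With Cell Ranger ARC 2.0.2 the authors made and deposited unnormalized counts, namely RNA UMIs per gene and ATAC counts per peak for every barcode. Peaks had been called library by library. The submitters' notes also list Seurat and Signac and the build mm10. How reads were assigned by strand is not given in the sources used here.

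Nuclei were barcodes with 501 to 8916 UMIs, 251 to 3307 genes, 500 or more ATAC counts and less than 2.787% mitochondrial UMIs. Doublets were not removed: the Scrublet caller marked 0.547% of nuclei, and the 3.85% with a score above the library mean + 2 SD were left out as an alternative. Groups came from the labels. The members and the gene lists were chosen with earlier results of these data known.

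Matched nuclei were the nearest in UMIs within the mouse, without replacement and within 10%. Counts were summed per mouse, the 18 genes of the rule were left out, and sums were tested by quasi-likelihood in edgeR 4.0.16 under R 4.3.3 (TMM, filterByExpr, Benjamini-Hochberg at 0.05 over all genes tested), with DESeq2 1.42.0 as the second tool. The comparison of genotypes had no block. Nuclei within a mouse are not replicates, and each mouse gave 1 value. Shares were compared by exact permutation tests over mice. Oligodendrocytes had 3 or more UMIs over a set of oligodendrocyte genes that included *Mog*, *Mag*, *Mobp* and *St18*, and at most 2 over the 6 GC genes. The fit was tested on simulated data for the member comparison with 4304 genes, where it recovered 77.8% of genes changed 1.5-fold and 100% of those changed 2-fold or 4-fold, with 6 false calls.

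Genes were named if they were markers, list genes, the 12 largest rises and falls that went the same way in every mouse and averaged 20 CPM or more, or the 5 largest in each direction between genotypes without overlap. Some items that met these rules are not reported here. *Kcnh7* and the genes of the comparison with *Sorcs3* nuclei were named after their values were seen. Alternatives changed the limits on nuclei, the rule, the matching, thinning, normalization, the filter on low counts, the tool, covariates and the mice included. Promoters came from RefSeq (GRCm38.p6). Python 3.11.15, numpy 2.4.6, scipy 1.17.1, scikit-learn 1.9.0 and scanpy 1.11.5 were used. Fragment files, trajectories, FISH and physiology were not analysed here.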

Additional observations from a re-analysis of the deposited data

Results flagged for a closer look

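The differences between members and matched nuclei, on the scale of log2(CPM + 1), were screened for single mice that stood far from the others of the 8 by Dixon's criterion. Only the 12 largest rises and 12 largest falls were screened in this way. Member shares, neighbour shares and marker levels were screened within each genotype, over 4 mice, which made 42 sets in all. A single mouse stood out in 9 sets, where chance gives about 1 in 20 of the sets screened. All 9 were among the differences of the 12 rises and 12 falls, and none among the other sets. *Bcl6* differed by 5.51 in WT F2 and *Pdgfc* by 2.60 in the same mouse. In WT M1, with 17 members, *Syt10* differed by 6.31, *Kcnh5* by 6.72, *Sorcs2* by 5.73, *Kcnq5* by -9.56, *Grm8* by -5.72 and *Trps1* by -4.47, the largest differences of these genes. In WT M1 *Syt10*, *Kcnh5* and *Sorcs2* had 0 counts in matched nuclei and *Kcnq5* and *Grm8* 0 in members, and in WT F2 *Bcl6* had 0 in matched nuclei, so these 6 values depend on the 1 added to the CPM. *Arhgef28* differed by 0.431 in V321L M2, the smallest rise of that gene.

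The member effect on *Kcnh7* differed between the genotypes by -1.28 on the log2 scale in the interaction term of edgeR. It was called in all 13 fits of that term, with values between -1.16 and -1.33, including those that left out 1 mouse.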

How the results depend on the processing

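The 52 named genes gave 1085 values under the alternatives with the same direction and side of the threshold, 72 that lost the call and 0 that reversed. The member share differed by 7.46 to 8.72 points without 1 mouse, by 4.38 with 3 or more marker UMIs, by 5.75 without *Akain1* and by 0.261 at 500 UMIs (exact permutation p = 0.0571). With mice of the same sex and number paired as a block the differences of 8.23 points and, at 1000 UMIs, 0.722 had p = 0.125 in the exact sign-flip test, the smallest that 4 pairs allow. Such mice deviated together only weakly over 6367 genes (correlations 0.0190 to 0.0910). The labels give them the same sex and number, and whether they shared anything else is not given in the sources used here. At 1000 UMIs the difference was 0.124 with 3 or more marker UMIs, 0.377 without *Akain1*, 0.151 with another seed, 0.543 as the mean of 20 draws, and 0.633 to 0.831 without 1 mouse, with an exact permutation p of 0.0571 without any of the WT mice and 0.0286 without any of the V321L mice, which is the smallest that 3 against 4 allow.

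Genes higher and lower in members numbered 70 and 82 in WT alone, 151 and 154 with 3 or more marker UMIs, 184 and 197 without *Akain1*, 557 and 691 without matching, 223 and 193 with a *Prox1* UMI in both, and 214 to 349 in either direction without 1 mouse, the lowest without V321L F2. Against matched nuclei with 0 *Sorcs3* UMIs they numbered 262 and 252. Genes whose member effect differed by genotype numbered 3 without the filter on low counts, 4 with another matching seed and 1 to 8 without 1 mouse, with 8 without WT F1, 4 without WT M2, 3 without V321L F1 and 2 without WT F2. Genes higher in V321L members numbered 2264 without the filter, 205 of 1147 tested at 1000 UMIs, 1536 with the replicate block and 1016 to 1538 without 1 mouse. Genes lower numbered 592 with library sizes, 174 at 1000 UMIs, 1092 with the block and 794 to 1209 without 1 mouse. The comparison with *Sorcs3* nuclei gave 482 calls in DESeq2 and 530 to 654 without 1 mouse. Fewer genes or nuclei entered the fits at 1000 UMIs, in WT alone and with *Prox1*. Of the fits for members, those with 3 or more marker UMIs tested 2564 genes and those without *Akain1* 2981. Without any 1 of the V321L mice 3488 to 3528 genes were tested, in place of 4545. The cause of the other shifts was not tested. Windows matched on ATAC counts gave 3 lower. The alternatives without *Akain1*, with *Prox1*, with averaged draws and without single mice in the interaction were chosen after seeing the data.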
